A study of Homo sapiens with 4 samples.

Results

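The genes described here are 40 genes of autophagy, listed by name as core machinery of the pathway and cargo receptors. The rule that picks them uses gene symbols and no measured value, but the list was drawn up with earlier results of these data known. They are 40 of 63241 genes in the deposited table, and each matched 1 row by its current symbol. They comprise 5 genes of the ULK initiation complex, 7 of the class III PI3-kinase complexes, 6 of membrane supply and lipid transfer, 10 of the conjugation machinery with its ATG4 proteases, 5 of the ATG8 family, 6 cargo receptors and 1 fusion tether, EPG5. They were measured in 22Rv1 cells, an established human prostate cancer line that the labels give as castration-resistant (CRPC), by sequencing of poly(A)-selected RNA. The 2 groups were cells given 40 nM JMC45 for 12 h and cells given the DMSO vehicle for 12 h, both in RPMI 1640 medium with serum and antibiotics. The submitters describe JMC45 as a small molecule that degrades CDK9, the kinase that releases paused RNA polymerase II into elongation. D45, the name used in the series title, was read as another name of JMC45. Each group had 2 libraries of this 1 line, with no statement of whether the cultures were separate. The p-values therefore describe the spread among these 4 libraries, and that spread may be technical.

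Autophagy encloses cytoplasm or organelles in a double membrane, the autophagosome, and delivers them to the lysosome. The ULK kinase complex starts the process, a class III PI3-kinase complex marks the membrane with a lipid, ATG9A and ATG2 proteins supply and move lipids, and a ubiquitin-like cascade attaches ATG8 family proteins to the growing membrane. Cargo receptors bind ATG8 proteins on one side and their cargo on the other. Because ATG8 proteins and receptors such as SQSTM1 are themselves degraded in the process, their protein amount is used as a measure of its rate, whereas transcripts such as those measured here show only the supply of mRNA. No protein and no flux was measured.

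The unit is TPM, in which a gene's reads are scaled by its length and by the library's sum, so levels can be compared between genes, but a change is a change of share, and the depth of the libraries is unknown. In bulk RNA, fewer cells and less RNA per cell cannot be told apart, and here a change of total mRNA per cell cannot be seen either. Among the 14018 genes whose mean TPM over the libraries reached 1, the median change, JMC45 minus vehicle, was -1.10 on log2(TPM + 1). Mitochondrially encoded genes moved the other way, from 20.1% and 20.4% of all TPM in vehicle to 26.6% and 29.3% in JMC45. When they were left out the median change was -1.04, and with their total held equal in all libraries it was -1.47. Whether they caused any of the changes below was not tested. After median-of-ratios scaling, which gives each library 1 factor that centres the ratios of its genes, the median gene changed by -0.01. A scaled value is given beside most changes on TPM, and the direction of many genes differs between the scales. All 8 luminal prostate markers were present in the vehicle libraries, at mean TPM of 10.09 to 364.8, while the 3 basal, 5 leukocyte and 3 endothelial markers were at most at 1.12 TPM in any library. Of 4 fibroblast markers only COL1A1 had a mean of at least 1 TPM, and their summed TPM was 3.64 and 3.22 in vehicle and 1.53 and 3.04 in JMC45. The 4 neuroendocrine markers summed to 107.3 to 112.8 TPM in all libraries, almost all of it from ENO2 and SYP.

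JMC45-treated cells held a smaller share of nearly all autophagy transcripts, but members acting in the same complex changed by very different amounts. The transcripts of ATG101, a subunit of the initiation complex, and PIK3C3, the catalytic subunit of the PI3-kinase, were at 10.2% and 8.41% of their vehicle TPM. Those of MAP1LC3B and GABARAPL2, the ubiquitin-like proteins that end up on the membrane, were at 103.4% and 98.3%. Of the 40 members 39 passed the filter of a mean TPM of at least 1, and the receptor OPTN did not. By limma's test with Benjamini-Hochberg adjustment over all 14018 genes and a threshold of 0.05, 37 of the 39 were lower in JMC45, or 94.9%, where 80.7% of all genes tested were lower. None was higher, where 4.25% of all genes were, and none was higher at an unadjusted p under 0.05. In 38 of 39 members both JMC45 libraries lay below both vehicle libraries, where this held for 85.7% of all genes. The members' median change was -1.33, which is -0.23 relative to the median gene. That relative value rests on the filter, and was -0.0449 at a mean TPM of at least 5 and -0.9951 with no filter. A change of -1 or below was seen in 28 of 39 members, or 71.8%, and in 54.6% of all genes. After median-of-ratios scaling limma called 18 members lower, or 46.2%, 10 higher, or 25.6%, and 11 neither, where 35.3% of all genes were lower and 35.5% higher. Quantile normalization gave 15 members lower and 9 higher, where 32.8% of all genes were lower and 33.6% higher. The plot of TPM in each library shows all members, and the plot of changes on both scalings shows which of them lie on either side of the median gene.

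**Figure D1:**
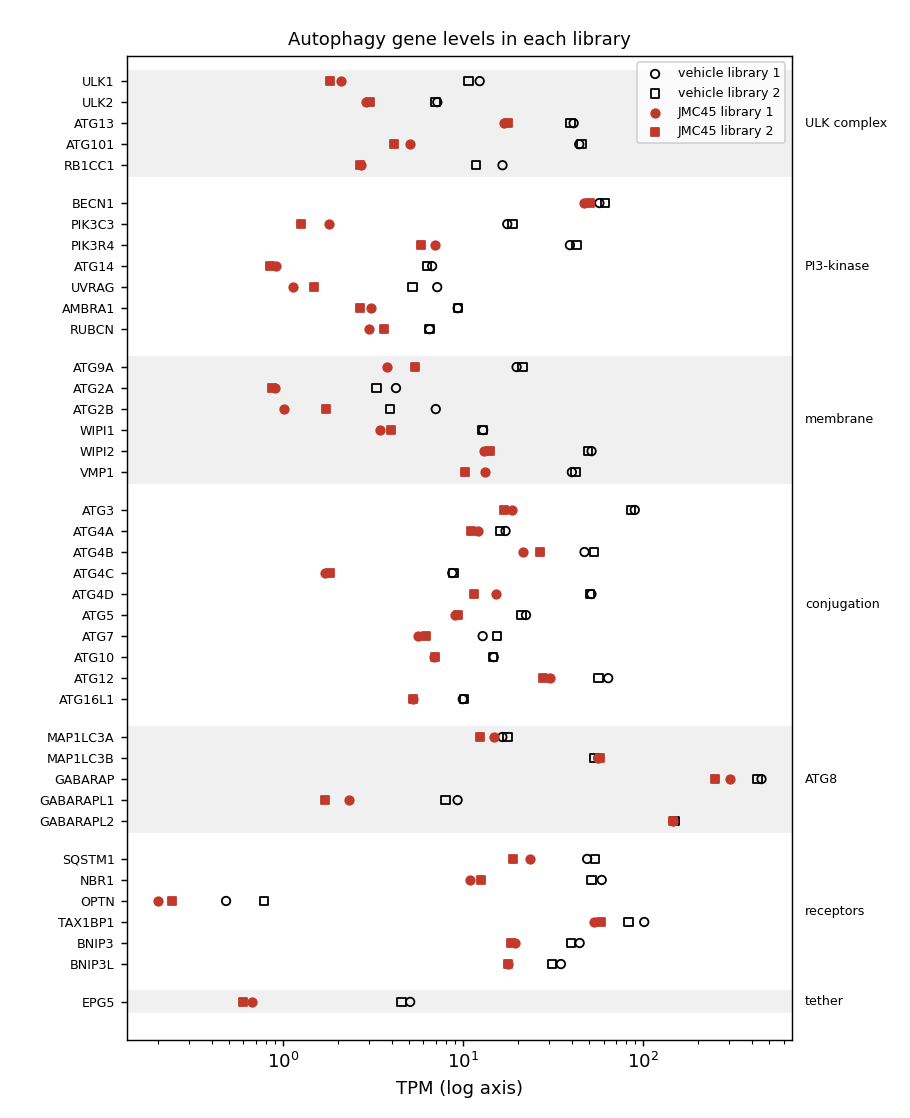
TPM of each autophagy gene (log axis) in the 2 vehicle libraries (open symbols) and the 2 JMC45 libraries (filled symbols), grouped by role. The groups are separate in nearly all genes and lie on top of each other for MAP1LC3B and GABARAPL2, with GABARAP at the highest level and OPTN at the lowest in both groups.

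**Figure D2:**
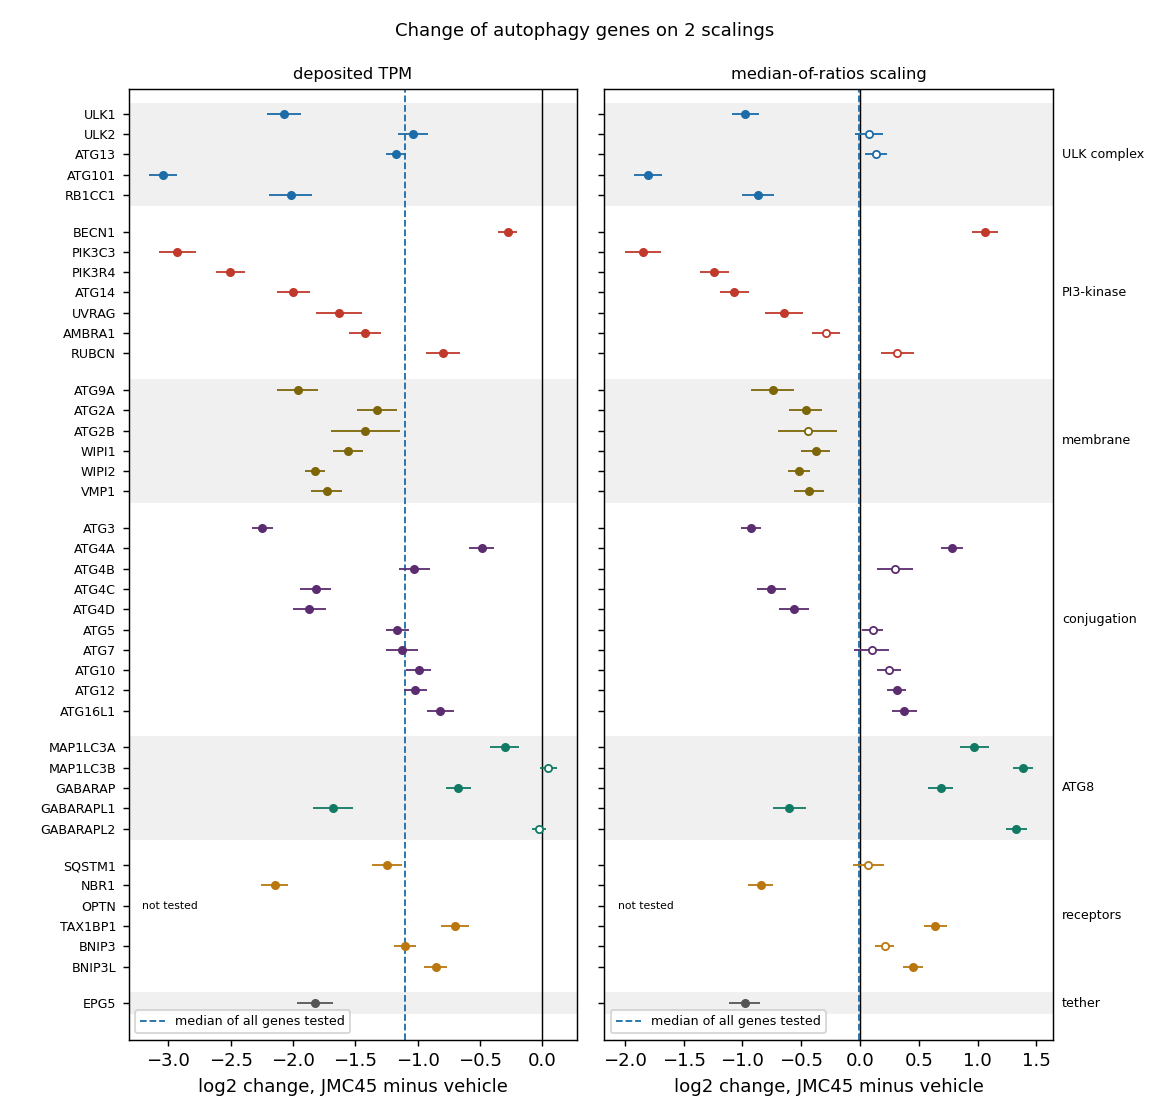
Change of each gene, JMC45 minus vehicle, on the log2(TPM + 1) scale as deposited (left) and after median-of-ratios scaling (right), with bars of 1 standard error. Filled points passed limma's adjusted threshold. The dashed line is the median of all genes tested, at -1.10 on the left and -0.01 on the right, and 18 members that lie below 0 on the left lie above 0 on the right.

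The members at both ends of this range are shown with the 250 bases before their RefSeq start (GRCh38.p14, all on the plus strand), so that their proximal promoters can be set side by side. The 4 short motifs were searched on both strands of that window, namely the E-box core CACGTG and its longer form TCACGTGA, which the TFEB family can bind, the hypoxia element core ACGTG, which is contained in both, and the antioxidant element core TGACNNNGC. Capitals mark any match. ATG101 is at chr12:52069728-52069977, PIK3C3 at chr18:41954984-41955233, MAP1LC3B at chr16:87392086-87392335 and GABARAPL2 at chr16:75566129-75566378.
ATG101: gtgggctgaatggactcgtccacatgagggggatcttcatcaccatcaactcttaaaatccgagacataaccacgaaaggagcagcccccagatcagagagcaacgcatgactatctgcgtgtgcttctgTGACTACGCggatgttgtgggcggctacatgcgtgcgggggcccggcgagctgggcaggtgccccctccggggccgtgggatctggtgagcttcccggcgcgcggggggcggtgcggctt
PIK3C3: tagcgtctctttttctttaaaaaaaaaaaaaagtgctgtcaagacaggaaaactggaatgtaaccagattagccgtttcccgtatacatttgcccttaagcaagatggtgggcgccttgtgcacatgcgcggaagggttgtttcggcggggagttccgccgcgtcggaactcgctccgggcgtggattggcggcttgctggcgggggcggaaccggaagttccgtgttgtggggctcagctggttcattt
MAP1LC3B: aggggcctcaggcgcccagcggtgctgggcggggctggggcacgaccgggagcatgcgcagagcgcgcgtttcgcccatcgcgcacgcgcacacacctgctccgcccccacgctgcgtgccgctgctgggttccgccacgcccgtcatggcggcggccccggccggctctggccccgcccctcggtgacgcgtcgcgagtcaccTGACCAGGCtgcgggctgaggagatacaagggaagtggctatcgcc
GABARAPL2: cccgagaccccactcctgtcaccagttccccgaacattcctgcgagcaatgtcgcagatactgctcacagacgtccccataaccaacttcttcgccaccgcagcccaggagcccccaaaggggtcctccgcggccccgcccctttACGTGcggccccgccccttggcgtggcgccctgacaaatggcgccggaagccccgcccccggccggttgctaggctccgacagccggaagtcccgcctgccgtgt
The window of ATG101, among the most reduced, and that of MAP1LC3B, which was not called, each held 1 TGACNNNGC. GABARAPL2 had 1 ACGTG, and PIK3C3 had no match to any of the 4. GC content was 62.8% for ATG101, 53.6% for PIK3C3, 74.8% for MAP1LC3B and 68.4% for GABARAPL2. The promoter table used here matched 34 of the 40 members, and ATG4D, BNIP3L, EPG5, MAP1LC3A, RB1CC1 and UVRAG were not analysed for promoters. CACGTG was in 3 of the 34 windows, those of ATG14, ATG3 and BNIP3, or 8.82%, and in 6.34% of all 35116 promoters in the table. TCACGTGA was in 0 of 34 and in 0.854% of all. ACGTG was in 10 of 34, or 29.4%, and in 18.5% of all, while TGACNNNGC was in 2 of 34, or 5.88%, and in 10.9% of all. Median GC content was 62.6% in the 34 member windows and 58.0% in all promoters, and the motif shares were not adjusted for it. The motif counts are matches of letters only.

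Among the initiation genes, ATG101 was the most reduced and ATG13 and ULK2 lay close to the median gene. ATG101 (ENSG00000123395), which stabilises ATG13 in the complex, measured 43.99 and 45.35 TPM in the vehicle libraries and 5.02 and 4.10 TPM in the JMC45 libraries. Both JMC45 values were far below both vehicle values. The change was -3.04 (SE 0.11, limma adjusted p = 1.03e-05), and 1.48% of all genes tested had a change as low. It remained the lowest of the 5 genes after median-of-ratios scaling, at -1.80. ULK1, the main initiating kinase, went from 12.3 and 10.7 TPM to 2.10 and 1.82 TPM, a change of -2.08 (SE 0.14, limma adjusted p = 3.41e-05) and of -0.98 after scaling. Its relative ULK2 went from 7.16 and 7.0 to 2.87 and 3.01 TPM. With a change of -1.04, ULK2 fell less, and after scaling its value of 0.08 was not called. RB1CC1, the large scaffold also known as FIP200, had 16.5 and 11.8 TPM in vehicle and 2.71 and 2.66 TPM in JMC45. Its vehicle libraries differed by more than its JMC45 libraries, but the groups did not overlap (change -2.02, and -0.87 after scaling). ATG13, the adaptor that joins the kinase to the scaffold, went from 40.9 and 39.3 to 16.7 and 17.7 TPM (-1.18, and 0.14 without a call after scaling).

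The makeup of the initiation transcripts therefore differed between the groups, and this holds on any scaling by 1 factor per library, because a ratio of 2 genes within a library does not contain that factor. ATG101 and ATG13 were nearly equal in vehicle, with ATG101 to ATG13 ratios of 1.07 and 1.15, and the ratios were 0.300 and 0.232 in JMC45. The ratio of ULK1 to ULK2 was 1.72 and 1.53 in vehicle and 0.732 and 0.605 in JMC45, so that the order of the kinases was inverted. Of the summed TPM of the 5 genes, ATG13 made up 34.2% ± 0.419 (SD, n = 2) in vehicle and 58.6% ± 2.52 in JMC45, and ATG101 made up 38.1% ± 2.37 and 15.5% ± 2.16. For each of these 4 values the groups did not overlap, and the two-sided exact permutation test gave p = 0.33, the smallest it can give with 2 libraries against 2. The same holds for every within-library ratio and share below unless another p is given. The pairs were chosen after the values of the genes were seen.

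The class III PI3-kinase genes spread most widely, from PIK3C3 near the bottom of all genes to BECN1 near the top. PIK3C3 (ENSG00000078142), the lipid kinase itself, measured 17.5 and 18.8 TPM in vehicle and 1.79 and 1.26 TPM in JMC45. The change was -2.93 (SE 0.15, limma adjusted p = 1.58e-05), with 1.96% of genes as low, and -1.85 after scaling. PIK3R4, the pseudokinase subunit on which the kinase is built, went from 39.04 and 42.43 to 6.97 and 5.78 TPM (-2.50, and -1.24 after scaling). BECN1 (ENSG00000126581), the beclin subunit that both forms of the complex share, had 56.9 and 61.1 TPM in vehicle and 46.8 and 50.2 TPM in JMC45. Its groups did not overlap, but the change was only -0.28 (SE 0.08, limma adjusted p = 0.0146), and 83.4% of genes had a change as low or lower. The BECN1 call was lost without vehicle replicate 2 (-0.23), without JMC45 replicate 1 (-0.23) and when the mitochondrially encoded genes were left out (-0.13), and after median-of-ratios scaling BECN1 was called higher (1.06).

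The subunits that give the PI3-kinase complex its place of action, ATG14 for autophagosome formation and UVRAG for later endosomal steps, were both reduced. ATG14 went from 6.70 and 6.28 TPM to 0.910 and 0.840 TPM (-1.998, and -1.07 after scaling). UVRAG had 7.15 and 5.21 TPM in vehicle and 1.13 and 1.47 TPM in JMC45 (-1.63, and -0.64 after scaling). The UVRAG call was not made after quantile normalization (-0.40). The regulator AMBRA1, with 9.29 and 9.34 TPM in vehicle and 3.05 and 2.65 in JMC45, fell by 1.42, but after scaling its -0.29 was not called. RUBCN, an inhibitor of the UVRAG form, went from 6.48 and 6.49 to 2.99 and 3.63 TPM (-0.80). After scaling its 0.32 was not called, while quantile normalization called it higher (0.53). Within each library, BECN1 transcripts were 3.25 times those of PIK3C3 in both vehicle libraries and 26.2 and 39.8 times in the JMC45 libraries. The ratio of BECN1 to PIK3R4 went from 1.46 and 1.44 to 6.72 and 8.68, and that of BECN1 to ATG14 from 8.49 and 9.72 to 51.5 and 59.8. The share of BECN1 was 82.3% of its vehicle TPM, while those of these 3 partners were 8.41%, 15.7% and 13.5%.

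The genes of membrane supply and lipid transfer moved most alike. All 6 were called lower on TPM, where 80.7% of all genes were, with changes between -1.96 and -1.33, every one below the median gene. After median-of-ratios scaling 5 of 6 were still called lower, or 83.3%, and none higher, where all genes gave 35.3% and 35.5%. Under quantile normalization 3 of 6 were called lower and none higher, where all genes gave 32.8% and 33.6%, and ATG2A (-0.23) and WIPI1 (-0.19) lost their calls. ATG9A, a lipid scramblase carried on vesicles, went from 19.7 and 21.2 TPM to 3.74 and 5.40 TPM (-1.96, SE 0.16, limma adjusted p = 7.91e-05). WIPI2, which reads the PI3-kinase's lipid product and recruits ATG16L1, was the most abundant of them, at 51.5 and 49.2 TPM in vehicle and 13.0 and 14.02 TPM in JMC45 (-1.82). VMP1, a scramblase of the endoplasmic reticulum, had 40.0 and 41.9 TPM in vehicle and 13.2 and 10.3 TPM in JMC45 (-1.73). These 3 kept their calls after scaling, at -0.74, -0.51 and -0.43. The lipid transfer proteins ATG2A and ATG2B were low throughout. ATG2A had 4.22 and 3.28 TPM in vehicle and 0.900 and 0.860 in JMC45 (-1.33, and -0.46 after scaling), and ATG2B had 7.02 and 3.91 in vehicle and 1.01 and 1.73 in JMC45. ATG2B had the largest standard error of the 39 members, and its change of -1.42 (SE 0.28) was -0.45 without a call after scaling. WIPI1 fell by 1.56 (-0.38 after scaling), and the ratio of WIPI2 to WIPI1 was 4.01 and 3.85 in vehicle and 3.79 and 3.54 in JMC45, the nearest to unchanged of the ratios computed.

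Of the 10 conjugation genes, ATG3, ATG4C and ATG4D were lower on both scales, and the other 7 were near or above the median gene. ATG3 (ENSG00000144848), the conjugating enzyme that attaches ATG8 proteins to lipid, was the most abundant of the 10 in vehicle, at 89.5 and 85.2 TPM, and measured 18.5 and 16.8 TPM in JMC45. The change was -2.25 (SE 0.08, limma adjusted p = 1.03e-05), with 9.89% of genes as low, and -0.92 after scaling. ATG7, the activating enzyme that serves both ubiquitin-like branches, went from 12.8 and 15.4 to 5.62 and 6.18 TPM (-1.12, and 0.10 without a call after scaling). ATG10, the conjugating enzyme of the ATG12 branch, had 14.7 and 14.6 TPM in vehicle and 6.82 and 6.91 TPM in JMC45 (-0.99, and 0.25 without a call after scaling). Quantile normalization called ATG10 higher (0.36). The ATG3 to ATG7 ratio was 6.998 and 5.548 in vehicle and 3.29 and 2.71 in JMC45, and ATG10 to ATG3 went from 0.165 and 0.171 to 0.368 and 0.413.

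The 3 genes of the complex that directs ATG8 lipidation lay close together near the median gene. ATG12, the ubiquitin-like protein, went from 63.7 and 56.3 to 30.3 and 27.8 TPM, a change of -1.02. Its partner ATG5 fell by 1.16, from 22.3 and 21.0 to 8.93 and 9.28 TPM, and ATG16L1, which places the complex on the membrane, fell by 0.82, from 9.92 and 10.1 to 5.22 and 5.25 TPM. After median-of-ratios scaling ATG12 (0.31) and ATG16L1 (0.38) were called higher and ATG5 (0.11) was not called, while under quantile normalization ATG12 (-0.0772) was not called. The ratio of ATG12 to ATG5 was 2.86 and 2.68 in vehicle and 3.39 and 3.00 in JMC45, a smaller shift than those of the initiation and PI3-kinase genes.

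The ATG4 proteases, which trim new ATG8 proteins and later free them from lipid, differed among themselves. ATG4A had 17.1 and 15.9 TPM in vehicle and 12.02 and 11 TPM in JMC45, a change of -0.49 (SE 0.10, limma adjusted p = 0.00418) that became a called 0.78 after scaling. ATG4B, the protease with the broadest activity, went from 47.1 and 53.0 to 21.5 and 26.8 TPM (-1.03, and 0.30 without a call after scaling). ATG4D had 51.4 and 50.4 TPM in vehicle, as much as ATG4B, but 15.1 and 11.5 TPM in JMC45 (-1.87). ATG4C went from 8.67 and 8.81 to 1.70 and 1.82 TPM (-1.82). ATG4C and ATG4D were still called lower after scaling, at -0.75 and -0.56, so the 4 proteases lay on both sides of the median gene.

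In the ATG8 family 2 of 5 genes did not pass the test, and they were the only members of the 39 that did not. The other 3 were called lower on TPM and none higher, where 80.7% of all genes were lower and 4.25% higher. After median-of-ratios scaling 1 of the 5 was called lower and 4 higher, where all genes gave 35.3% and 35.5%. Quantile normalization gave 1 lower and 3 higher, where all genes gave 32.8% and 33.6%. GABARAPL2 (ENSG00000034713) was at 147.1 and 148.6 TPM in vehicle and at 145.3 TPM in both JMC45 libraries. Its change of -0.02 had a 95% interval of -0.16 to 0.11 (limma adjusted p = 0.699), and 89.9% of genes had a change as low or lower. MAP1LC3B (ENSG00000140941), the LC3 protein most used as an autophagosome marker, was at 56.2 and 53.1 TPM in vehicle and 55.7 and 57.3 TPM in JMC45. Its groups overlapped, and the change of 0.05 had a 95% interval of -0.12 to 0.22 (limma adjusted p = 0.537). With the median gene at -1.10, a level that stays even on TPM lies above most genes, and the 2 genes were called higher under median-of-ratios scaling (1.33 for GABARAPL2 and 1.39 for MAP1LC3B) and under quantile normalization (0.42 and 0.92). If the summed mitochondrially encoded TPM was instead held equal in all libraries, both were called lower (-0.48 and -0.41).

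GABARAP, the most abundant member in every library, went from 452.7 and 429.5 TPM to 303.4 and 251.1 TPM, a change of -0.67 (SE 0.10, limma adjusted p = 0.000885) that became 0.69 under median-of-ratios scaling and -0.34 under quantile normalization, each called. MAP1LC3A had 16.5 and 17.6 TPM in vehicle and 14.9 and 12.4 TPM in JMC45. Its change of -0.30 passed narrowly (limma adjusted p = 0.0471) and was not called without any 1 of 3 libraries, namely vehicle replicate 1 (-0.35), vehicle replicate 2 (-0.26) and JMC45 replicate 2 (-0.18). Nor was it called without the intensity trend (limma adjusted p = 0.0679), with no low-value filter (limma adjusted p = 0.0979) or when mitochondrially encoded genes were left out (-0.17), and after median-of-ratios scaling it was called higher (0.97). GABARAPL1 was the only one of the 5 below the median gene. It went from 9.28 and 7.96 to 2.32 and 1.70 TPM (-1.68, SE 0.16, limma adjusted p = 0.000140), and was called lower after median-of-ratios scaling (-0.60) but not after quantile normalization (-0.35).

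**Figure D3:**
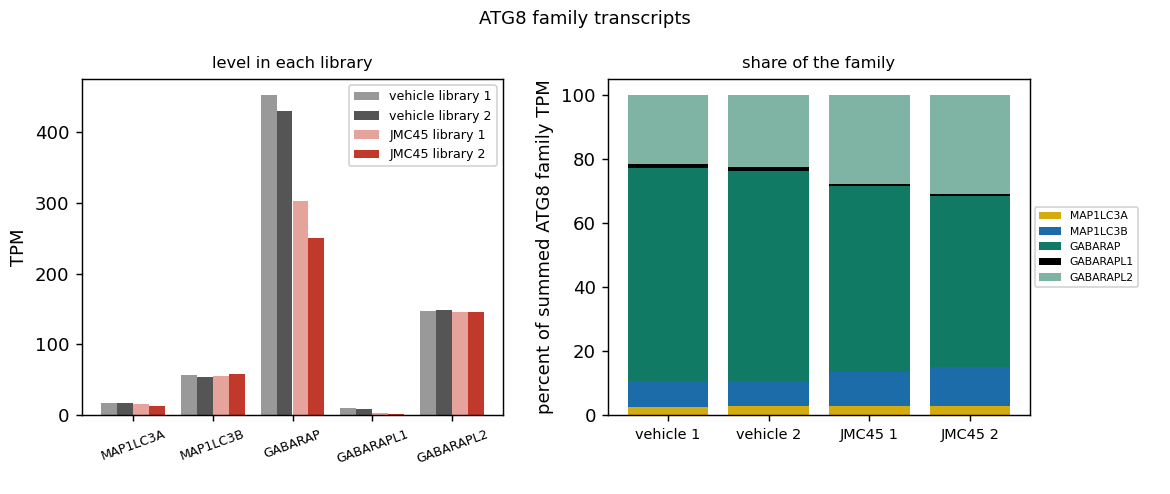
Left: TPM of the 5 ATG8 family genes in each library, 1 bar per library. Right: the percent of the summed ATG8 family TPM that each gene makes up in each library. GABARAPL2 and MAP1LC3B bars are level across libraries, and their shares are larger in JMC45 as that of GABARAP is smaller.

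Within the summed ATG8 transcripts, GABARAP made up 65.9% ± 0.713 (SD, n = 2) in vehicle and 55.9% ± 3.18 in JMC45. The share of GABARAPL2 was 22.1% ± 0.746 and 29.5% ± 2.27, that of MAP1LC3B 8.16% ± 0.113 and 11.5% ± 1.11, and that of GABARAPL1 1.29% ± 0.105 and 0.404% ± 0.0576. The share of MAP1LC3A overlapped between groups, at 2.54% ± 0.186 and 2.75% ± 0.142 (exact permutation p = 0.67). MAP1LC3B transcripts stood at 0.628 and 0.623 of those of ATG3, the enzyme that conjugates its product, in vehicle, and at 3.01 and 3.42 in JMC45. The summed TPM of the 5 genes was 681.7 and 656.6 in vehicle and 521.6 and 467.8 in JMC45, while that of the initiation genes was 120.9 and 114.1 and then 29.4 and 29.3. MAP1LC3B2, a near-identical copy of MAP1LC3B, had 0.8 to 1.95 TPM, and because the division of reads between near-identical copies was not tested, the values of both are uncertain.

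All 5 cargo receptors tested were called lower on TPM, where 80.7% of all genes were, with NBR1 reduced most. After median-of-ratios scaling 1 was called lower, 2 higher and 2 neither, where 35.3% of all genes were lower and 35.5% higher. Quantile normalization gave 1 lower and 1 higher, where all genes gave 32.8% and 33.6%. NBR1 went from 58.7 and 51.5 TPM to 10.8 and 12.5 TPM (-2.15, SE 0.11, limma adjusted p = 1.59e-05), and was still called lower after scaling (-0.84). SQSTM1 (p62), which gathers ubiquitinated cargo together with NBR1, had 48.7 and 53.7 TPM in vehicle and 23.3 and 18.8 TPM in JMC45. Its change of -1.25 was close to that of the median gene, and after scaling its 0.07 was not called. TAX1BP1, another receptor for ubiquitinated cargo and the most abundant in vehicle, went from 101.0 and 82.8 to 53.3 and 58.5 TPM (-0.70, and a called 0.64 after scaling that quantile normalization did not give, at 0.0591). The TAX1BP1 to NBR1 ratio was 1.72 and 1.61 in vehicle and 4.92 and 4.68 in JMC45. The mitophagy receptors of the outer mitochondrial membrane were both lower on TPM, BNIP3 by more than BNIP3L. BNIP3 had 44.2 and 39.6 TPM in vehicle and 19.4 and 18.5 TPM in JMC45 (-1.10, and 0.21 without a call after scaling), and BNIP3L had 34.8 and 31.0 TPM and then 17.7 and 17.6 TPM (-0.86, and a called 0.45). Quantile normalization called BNIP3L higher (0.29) and did not call BNIP3 (-0.01). The BNIP3 to BNIP3L ratio was 1.27 and 1.28 in vehicle and 1.09 and 1.05 in JMC45. OPTN, the receptor left out by the filter, had 0.480 and 0.780 TPM in vehicle and 0.200 and 0.240 TPM in JMC45. SQSTM1 made up 18.8% ± 2.69 (SD, n = 2) of the receptor transcripts in vehicle and 16.8% ± 2.70 in JMC45, which overlapped (exact permutation p = 0.67). EPG5, the tether that brings autophagosomes to lysosomes, had 5.06 and 4.54 TPM in vehicle and 0.670 and 0.600 TPM in JMC45 (-1.83, and -0.98 after scaling).

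**Figure D4:**
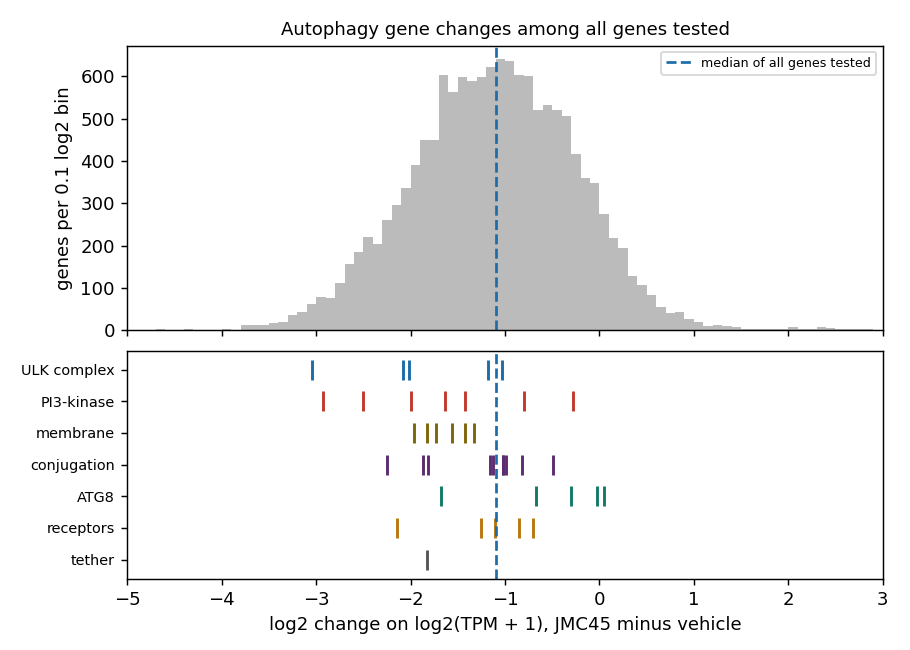
Top: number of genes per 0.1 bin of log2 change on log2(TPM + 1), JMC45 minus vehicle, for all 14018 genes tested. Bottom: 1 tick per autophagy gene in its role group, on the same axis, with the dashed line at the median gene (-1.10). The 6 membrane genes lie below that line and 4 of the 5 ATG8 genes above it.

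By role, the median change relative to the median gene was -0.92 for the initiation genes, -0.54 for membrane supply, -0.53 for the PI3-kinase genes, 0.03 for conjugation, -0.0034 for the receptors and 0.80 for the ATG8 family. The differences between roles were not tested, and the groups hold 5 to 10 genes each. The order of mean levels differed between the groups. In vehicle the 5 highest members were GABARAP, GABARAPL2, TAX1BP1, ATG3 and ATG12, and in JMC45 they were GABARAP, GABARAPL2, MAP1LC3B, TAX1BP1 and BECN1. ATG12 and BECN1 were not separated in vehicle, at 60.0 ± 5.24 and 59.0 ± 2.93 TPM, and BECN1 was the higher in vehicle replicate 2. TAX1BP1 and ATG3 did not differ beyond their spread in vehicle, at 91.9 ± 12.9 and 87.4 ± 3.03 TPM, nor did MAP1LC3B and TAX1BP1 in JMC45, at 56.5 ± 1.15 and 55.9 ± 3.67 TPM (SD, n = 2). ATG3 went from rank 4 of 40 to rank 11, ATG101 from rank 13 to rank 25 and PIK3C3 from rank 21 to rank 34, while MAP1LC3B went from rank 8 to rank 3 and MAP1LC3A from rank 22 to rank 13.

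Of 69 further genes of the pathway, 66 were tested, and limma called 60 lower and none higher on TPM, with none higher at an unadjusted p under 0.05. That is 90.9% lower, where 80.7% of all genes tested were. Their median change was -1.05, against -1.10 for the median gene. After median-of-ratios scaling 23 were lower and 25 higher, or 34.8% and 37.9%, close to the 35.3% and 35.5% of all genes. Transcription factors that drive or restrain autophagy and lysosome genes were the most reduced of the 5 lists, with all 10 tested called lower, a median of -1.60 and 8 still lower after scaling. The stress factor DDIT3 (CHOP) went from 66.7 and 80.3 TPM to 5.99 and 5.49 TPM (-3.46, SE 0.11, limma adjusted p = 9.82e-06, and -2.19 after scaling). ATF4, its upstream activator, went from 389.9 and 383.0 to 84.1 and 78.2 TPM (-2.24, and -0.88 after scaling). FOXO3 (-1.89) and the repressor ZKSCAN3 (-1.85) followed, both still lower after scaling at -0.82 and -1.07. TFEB, named after its value was seen as the best known activator of these genes, had 4.06 and 3.59 TPM in vehicle and 0.650 and 0.710 TPM in JMC45 (-1.52, and -0.69 after scaling). Its relative TFE3 went from 7.59 and 7.86 to 5.57 and 5.46 TPM (-0.42), a call that was lost without vehicle replicate 2 or without either JMC45 library, and after scaling TFE3 was called higher (0.76).

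In the kinase pathways upstream, 14 of 16 genes of mTORC1, TSC and AMPK were lower on TPM, and after scaling 5 were lower and 5 higher. These shares, 87.5% and then 31.2% each, were near those of all genes. RPTOR, the mTORC1 scaffold (-1.83), the AMPK subunits PRKAB1 (-1.80) and PRKAG2 (-1.60), and its catalytic subunit PRKAA1 (-1.74) led the decreases, and all 4 were still lower after scaling. The AMPK subunits PRKAB2 (-0.60) and PRKAG1 (-0.83) were lower on TPM but called higher after scaling, at 0.65 and 0.51. Under quantile normalization PRKAG1 was not called (0.02). Mean vehicle TPM was 75.6 for PRKAG1 and 20.3 for PRKAG2. The 2 not called on TPM were TSC2 (-0.20, and a called 1.10 after scaling), which restrains mTORC1, and PRKAA2 (-0.42, and 0.30 without a call). PRKAA2 was called higher under quantile normalization (0.59). Of 13 genes of autophagosome-lysosome fusion 12 were lower on TPM, or 92.3%, where 80.7% of all genes were. After scaling 3 were lower and 8 higher, or 23.1% and 61.5%, where all genes gave 35.3% and 35.5%. Quantile normalization gave 4 of 13 lower and 5 higher, near the 32.8% and 33.6% of all genes. VPS18 went from 6.67 and 5.96 to 0.470 and 0.410 TPM (-2.34, and -1.53 after scaling) and VPS33A from 23.6 and 21.9 to 4.18 and 4.04 TPM (-2.21, and -0.997 after scaling). Both belong to the HOPS tethering complex, as does VPS41, the gene not called, with 26.5 and 21.1 TPM in vehicle and 22.1 and 22.8 TPM in JMC45 (-0.07, and a called 1.23 after scaling). On TPM the HOPS subunits VPS11 (-0.77), VPS16 (-0.36) and VPS39 (-0.72) were lower by less than the median gene. After scaling all of these were called higher, at 0.49, 0.90 and 0.56. The fusion SNAREs SNAP29 (-1.78) and STX17 (-1.51) were also lower, and STX17 was not called after scaling (-0.38). The SNAREs VAMP8 (-0.36), YKT6 (-0.65) and STX7 (-0.60) were lower on TPM by less than the median gene. After median-of-ratios scaling they were called higher, at 0.995, 0.69 and 0.46, and of them only STX7 was called under quantile normalization (0.68).

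Of 14 other receptors tested 13 were lower on TPM, or 92.9%, where 80.7% of all genes were. After scaling 5 of the 14 were lower and 7 higher, where all genes gave 35.3% and 35.5%. The share lower, 35.7%, was therefore close to that of all genes. The glycogen receptor STBD1 went from 18.3 and 17.2 to 1.95 and 2.33 TPM (-2.58, and -1.45 after scaling), the mitophagy receptors FUNDC1 and BCL2L13 fell by 2.02 and 1.71, and the endoplasmic reticulum receptor SEC62 fell by 1.74. These 3 were still called lower after scaling, at -0.79 for FUNDC1, -0.43 for BCL2L13 and -0.42 for SEC62. The mitophagy receptor FKBP8 was not called, at 100.7 and 114.6 TPM in vehicle and 110.8 and 102.9 TPM in JMC45 (-0.0088, and a called 1.34 after scaling). Of 13 other core factors 11 were lower on TPM, or 84.6%, close to the share of all genes. After scaling 2 were lower and 4 higher, or 15.4% and 30.8%, where all genes gave 35.3% and 35.5%. NRBF2, a subunit of the ATG14 form of the PI3-kinase complex, went from 9.54 and 10.96 to 1.91 and 2.02 TPM (-1.92, and -0.83 after scaling), and ZFYVE1 (-1.55), TBK1 (-1.21) and SH3GLB1 (-1.26) followed. TBK1 and SH3GLB1 were not called after scaling (0.11 and 0.00). WDFY3 (-0.60, and 0.57 without a call after scaling) and MAP1LC3B2 (0.34, and a called 1.09) were those not called on TPM.

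Gene structure went along with the members' changes only weakly. Across the 39 members, which share the same 4 libraries, log2 exonic length in GENCODE 29 correlated with the change at Pearson r = -0.23 and Spearman rho = -0.17, log2 gene span at r = -0.08 and rho = -0.06, and log2 exon number at r = -0.21 and rho = -0.24. Over 11570 protein-coding genes tested the corresponding r values were -0.05, 0.07 and 0.11. The vehicle level correlated at r = 0.20 across the members and 0.07 across those genes. In that annotation 23 members share exonic bases with another gene, and in 7 of them the partner had the higher mean TPM, always on the opposite strand. The library kit keeps strand, per the labels, but no source used here says that strand entered the quantification, so these values are uncertain. The clearest case is ATG10, which shares 6.86% of its exonic bases with RPS23, at a mean of 4310 TPM and with a change of 0.52, against 10.8 TPM for ATG10. ATG12 shares 4.25% with AP3S1 (94.9 TPM, change 0.02), BECN1 shares 4.68% with PSME3 (75.5 TPM, change -1.73), and SQSTM1 shares 1.37% with MGAT4B (59.3 TPM, change 0.19). ATG7 shares 18.1% with VGLL4 (19.0 TPM, change -1.08), RUBCN 1.37% with FYTTD1 (27.6 TPM, change -0.59) and ATG2B 2.84% with GSKIP (18.0 TPM, change -2.19).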

How the data were processed

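Poly(A) RNA of 4 libraries of 22Rv1 cells was sequenced, 2 with JMC45 and 2 with vehicle. Per the file headers, the authors deposited TPM per library, with Ensembl genes as rows. Per the submitters' processing notes, fastp, HISAT2 and StringTie were used, with no version given. Genome build, annotation and strand use are not given in any source used here. The 2 control columns were taken as the vehicle libraries by name and number. Of the table, 63241 genes were kept and 50 lines without values dropped, and a gene name table gave symbols for 62666. Depth is unknown, so counting intervals are not given.

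Genes were tested if their mean TPM reached 1 (14018 genes), on log2(TPM + 1), which understates changes of low genes. The two-sided test was that of limma 3.58.1 (R 4.3.3) with an intensity trend and no replicate block, adjusted by Benjamini-Hochberg over all genes tested, and it was checked on simulated data. Ratios and shares within a library were set against each other by an exact permutation test, two-sided (scipy 1.17.1). In all, 13 alternatives were run: the pseudocount at 0.1, no filter, a filter at a mean TPM of 5, 2 scalings (median of ratios, quantiles), leaving out the mitochondrially encoded genes, holding their total equal, no trend, the replicate block, and each library left out. The members and lists were chosen with earlier results of these data known. Library values were to be given for the 3 most abundant, the most reduced and the least reduced member of each role, and up to 4 genes of each other list with the largest change past the threshold were to be named. Library values of further members, the genes not called, TFEB, TFE3 and MAP1LC3B2 were added after their values were seen. So were the changes of PRKAB2, PRKAG1, VPS11, VPS16, VPS39, VAMP8, YKT6 and STX7.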

Additional observations from a re-analysis of the deposited data

How the results depend on the processing

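Of 39 members tested, 37 were lower in JMC45 on TPM, 18 under median-of-ratios scaling and 15 under quantile normalization. The count of members higher was 0, 10 and 9 in the same order. For the 66 other pathway genes tested the count lower went from 60 to 23 and 25, and the count higher from 0 to 25 and 21. Of all genes tested, 80.7%, 35.3% and 32.8% were lower and 4.25%, 35.5% and 33.6% higher in that order, so the whole table shifted with the scaling too. The members' median was -1.68 with a pseudocount of 0.1, -1.29 without the filter, -1.18 at a mean TPM of at least 5, -0.29 under median-of-ratios scaling, -0.20 under quantile normalization, -1.35 without the mitochondrially encoded genes, -1.70 with their total held equal, and -1.42 to -1.25 with 1 library left out. Relative to the median gene it was -0.34, -0.9951, -0.0449, -0.28, -0.22, -0.32, -0.22 and -0.25 to -0.21 in the same order. The causes were not tested, except that the filter sets which genes make up the median gene.

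After median-of-ratios scaling the sign reversed for ULK2 (0.0779), ATG13 (0.14), BECN1 (1.06), RUBCN (0.32), ATG4A (0.78), ATG4B (0.30), ATG5 (0.11), ATG7 (0.10), ATG10 (0.25), ATG12 (0.31), ATG16L1 (0.38), MAP1LC3A (0.97), GABARAP (0.69), GABARAPL2 (1.33), SQSTM1 (0.0712), TAX1BP1 (0.64), BNIP3 (0.21), BNIP3L (0.45), SH3GLB1 (0.0019), TBK1 (0.11), FKBP8 (1.34), VPS41 (1.23), WDFY3 (0.57), TSC2 (1.10), PRKAA2 (0.30) and TFE3 (0.76). After quantile normalization it reversed for ULK2 (0.31), BECN1 (0.61), RUBCN (0.53), ATG4A (0.81), ATG5 (0.14), ATG7 (0.24), ATG10 (0.36), ATG16L1 (0.55), MAP1LC3A (0.98), GABARAPL2 (0.42), TAX1BP1 (0.0591), BNIP3L (0.29), SH3GLB1 (0.068), FKBP8 (0.60), VPS41 (1.10), WDFY3 (0.75), TSC2 (1.00), PRKAA2 (0.59) and TFE3 (0.94). Without the mitochondrially encoded genes GABARAPL2 (0.12), FKBP8 (0.14) and VPS41 (0.071) reversed, and with their total held equal MAP1LC3B did (-0.41). With 1 library left out FKBP8 ranged from -0.1017 to 0.0841 and VPS41 from -0.2252 to 0.0849. Left out of these lists are PRKAB2, PRKAG1, VPS11, VPS16, VPS39, VAMP8, YKT6 and STX7, whose scaled values are given above.

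The library titles do not say whether the replicate numbers pair the samples. Across genes, deviations of same-numbered libraries from their group means correlated at r = -0.0471. With 2 libraries a group this is a single comparison, so it cannot settle whether they are paired. With the replicate block 37 members were lower. TPM keeps no depth, so the precision of low genes such as ATG14 and EPG5 rests on 2 libraries a group.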
